A study of Drosophila melanogaster with 6 samples.

Results

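The vacuolar H+-ATPase (V-ATPase) of Drosophila melanogaster was followed through 33 genes, every row whose name starts with Vha among the 14862 genes of the authors' deposited table. The series compared embryos from oocytes that expressed InR-DN, a dominant-negative insulin receptor, with embryos from oocytes that expressed GFP (green fluorescent protein) as the control, which asks how lower insulin signalling in the mother's germ line affects gene expression in her offspring. The 6 samples were 3 labelled InR-DN and 3 labelled GFP control, each RNA from 200 embryos of 16 to 20 h by the labels (16 h by the design text), from flies on standard food with yeast paste. Neither the driver line of the transgenes nor separate crosses are named in the labels, and the spread that the p-values measure may be technical.

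The V-ATPase is a rotary pump that uses ATP to move protons across membranes. Its cytosolic V1 sector holds the subunits A to H and splits ATP, and its membrane-embedded V0 sector holds the subunits a, c, c'', d and e and carries the protons. In all cells the pump acidifies lysosomes, endosomes and secretory vesicles, while in fly Malpighian tubules and in the acid-secreting region of the midgut it also works at the plasma membrane. In the fly several subunits have extra gene copies, and many of these copies are known from adult or larval tissues such as testis, brain or midgut. Of the 33 genes, 15 were classed as the ubiquitous form of their subunit and 18 as other paralogs, which belong to 8 of the subunit families.

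The table gives a log2 fold change, an average level and a test for each gene, with no values for single samples. No source used here states the numerator of the fold change, so a gene is described by the side of 0 on which it lies, and which embryos had more of its RNA is left unsaid. Levels of genes with a single read showed that 12 libraries entered the fit. Of these, 3 set the positive side (25700000, 37300000 and 40500000 reads), 3 set the negative side (23400000, 29600000 and 31100000 reads) and 6 had no part in the comparison. Averages in CPM (read counts scaled to a common library size) cover all 12 libraries and may come mostly from the 6 that were not compared. Midgut markers lay on the positive side (9 of 11 called there, 1 called opposite) and tubule markers on the negative side (5 of 10 called there, 0 called opposite). All 13 ovary and egg markers averaged over 16 CPM, and of the 11 neuron markers 3 averaged 1 CPM or more (elav 131, Syx1A 59.6 and futsch 3.66 CPM) while VGlut and VAChT had no read in the compared libraries.

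No V-ATPase gene passed the test for a difference. Of the 33 members 0 had an adjusted p under 0.05 in edgeR's likelihood ratio test in the authors' deposited table, against 4.49% of all genes, split into 2.3% with a positive and 2.19% with a negative fold change. An unadjusted p under 0.05 was found for 0 of the 33, against 10% of all genes. At the abundance of the ubiquitous subunits calls were rarer, at 0.795% of 2893 genes, and 2.56% of those genes had an unadjusted p under 0.05. The smallest unadjusted p of any member was 0.148, for Vha100-4. In the authors' deposited table the median log2 fold change was 0.03 over the 26 members and 0.03 over the 13080 genes with reads in the compared libraries, and 0.00 in both once genes without such reads, which stand at exactly 0, are included. Over the 15 ubiquitous subunits it was 0.07, against 0.03 over the genes of the same abundance range. Of these 15 subunits 12 had a fold change above 0 in the authors' deposited table, as had 1772 of the 2893 genes.

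**Figure D1:**
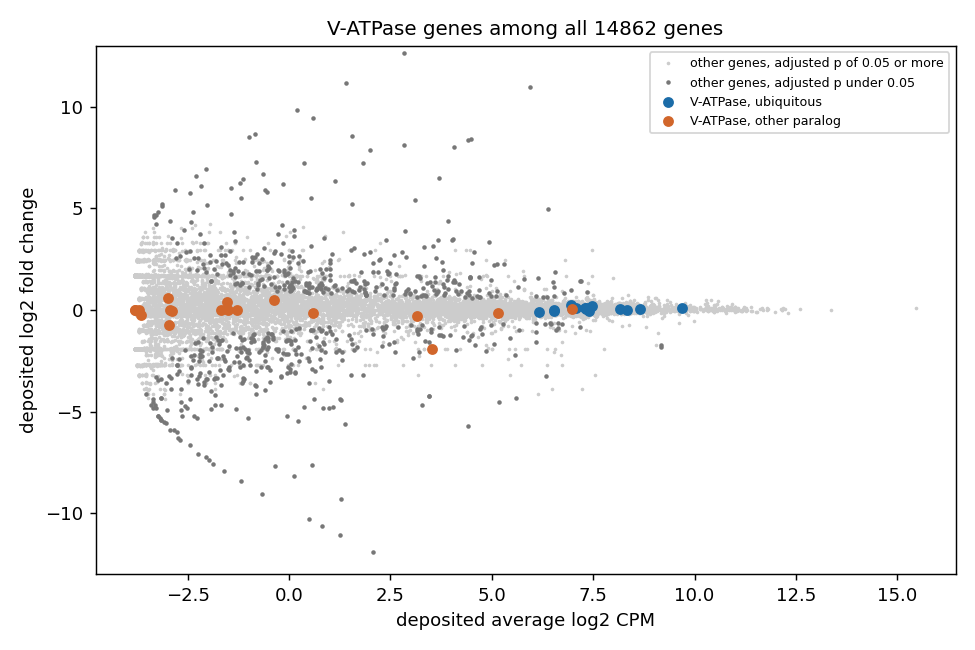
Each point is a gene at its deposited average log2 CPM (x axis) and deposited log2 fold change (y axis), with ubiquitous V-ATPase subunits in blue, other paralogs in orange, and other genes in dark grey where the adjusted p is under 0.05. The 15 ubiquitous subunits sit close to 0 at the abundant end, and none of the 33 members is among the called genes.

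Ubiquitous subunits were abundant in the average over the 12 libraries and present in the compared embryos. Their averages ran from 71.3 CPM for Vha14-1 to 828 CPM for Vha16-1, and the size of the test statistic requires at least 13.7 to 41.9 reads per compared library, depending on the gene. Set per kilobase (kb) of exon, the levels of the 15 spanned 33.6 to 269 CPM per kb. Vha16-1, the proteolipid c that forms the proton-carrying ring, was first with 269 CPM per kb. Next came 2 subunits of the peripheral stalks, Vha13 (subunit G) with 178 and Vha26 (subunit E) with 138.5 CPM per kb. The catalytic head was close behind, with 117 CPM per kb for Vha55 (subunit B) and 104 CPM per kb for Vha68-2 (subunit A). VhaPPA1-1 (subunit c'') had 118 CPM per kb and Vha14-1 (subunit F, part of the central rotor) had 108 CPM per kb. VhaAC39-1 (subunit d) had 89.6 and Vha36-1 (subunit D, the rotor shaft) had 86.8 CPM per kb.

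The lowest levels per length were those of subunits C, H and a. Vha44 (subunit C, which leaves the complex when the pump is taken apart) had 33.6 CPM per kb, VhaSFD (subunit H) had 43.7 and Vha100-2 (subunit a, which tethers V1 to the membrane) had 54.9 CPM per kb. The small subunit VhaM9.7-b (e) had 76.6 CPM per kb, and the accessory proteins VhaAC45 and VhaM8.9, the fly counterpart of the prorenin receptor, had 78.2 and 85.55 CPM per kb. Subunits A, B, E, G and c are known to be present in several copies in each pump. These 5 genes had a median of 138.5 CPM per kb, with a range of 103.8 to 269, against a median of 81.7 and a range of 33.6 to 118 for the other 8 core subunits. The ranges overlap at VhaPPA1-1 and Vha14-1. RNA levels over the 12 libraries and protein copies per pump are unlike measures, and a link between them was not tested. No spread over samples is known for these averages, so neighbours in this order were not tested against each other, and the exon lengths come from Ensembl, and these need not match the authors' gene models.

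**Figure D2:**
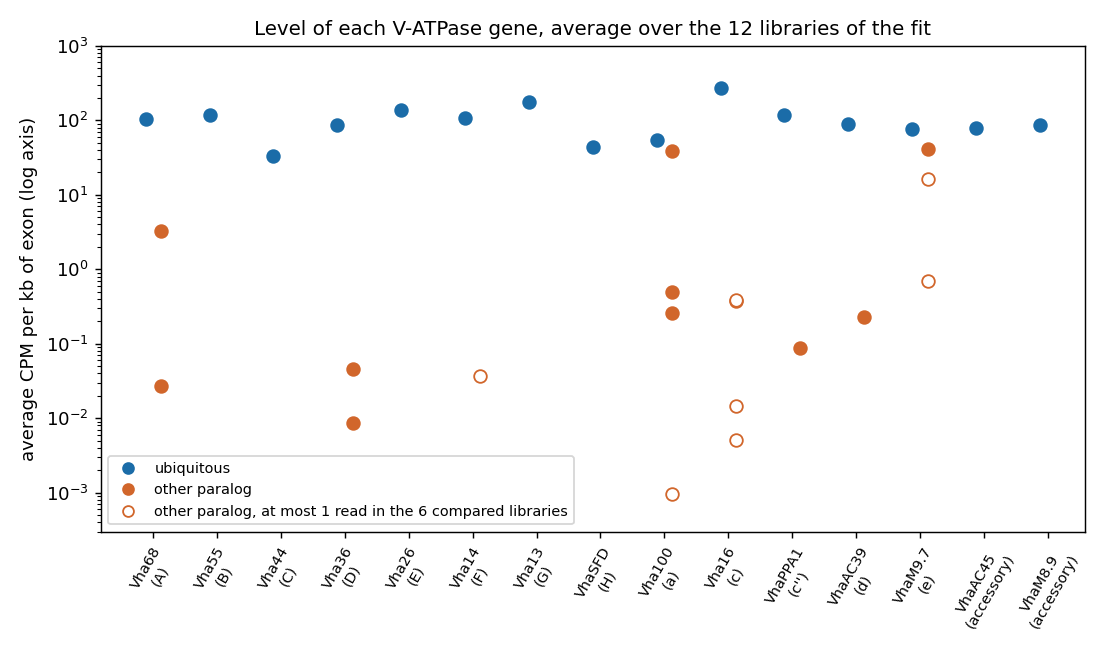
Average level over the 12 libraries of the fit, in CPM per kb of exon on a log axis, for each V-ATPase gene by subunit family, with ubiquitous forms in blue on the left of other paralogs in orange. Open symbols mark the paralogs with at most 1 read in the 6 compared libraries. All blue points lie between 33.6 and 269, and most orange points lie below 1.

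The fold changes of the 8 ubiquitous V1 genes lay between -0.08 and 0.26 (log2) by the authors' deposited table. The error printed beside a fold change is a standard error (SE) worked out from the table, by dividing the absolute log2 fold change by the root of its likelihood ratio statistic, and the 95% intervals rest on it. The subunits of the catalytic head lay near 0, with a log2 fold change of 0.01 (error 0.22) for Vha55 and 0.07 (error 0.20) for Vha68-2 in the authors' deposited table. VhaSFD, the H subunit that is known to bridge V1 and V0, had the largest value of the ubiquitous genes, 0.26 (error 0.21, unadjusted p 0.223) in the authors' deposited table, with an edgeR adjusted p of 0.942. Vha14-1, at -0.08 (error 0.26), was the lowest in the authors' deposited table, and the stalk subunits Vha13 and Vha26 had -0.05 (error 0.19) and 0.06 (error 0.30). For the rotor shaft Vha36-1 the authors' deposited table gives 0.01 (error 0.29), and for Vha44 it gives 0.09 (error 0.31).

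The ubiquitous genes of the membrane sector were as even. Vha100-2 had a log2 fold change of 0.22 (error 0.19, edgeR adjusted p 0.952) in the authors' deposited table, the largest of these 7. The ring subunits Vha16-1 and VhaPPA1-1 had 0.11 (error 0.26) and 0.04 (error 0.32) in the authors' deposited table. VhaAC39-1 had 0.08 (error 0.18), VhaM9.7-b had -0.04 (error 0.20), and the accessory genes VhaAC45 and VhaM8.9 had 0.09 (error 0.19) and 0.08 (error 0.20) in the authors' deposited table. Both sectors were thus close to 0, with medians of 0.03 for the 8 genes of V1 and 0.08 for the 7 genes of V0. Taken over the 15 ubiquitous genes, the 95% intervals reached down to 0.666-fold (Vha14-1) and up to 1.62-fold (Vha44). All 15 intervals lay within a 2-fold change in either direction, and 7 of them lay within a 1.5-fold change. Smaller differences were not detectable with this spread, and in RNA from whole embryos fewer cells of a type and less RNA per cell cannot be told apart.

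**Figure D3:**
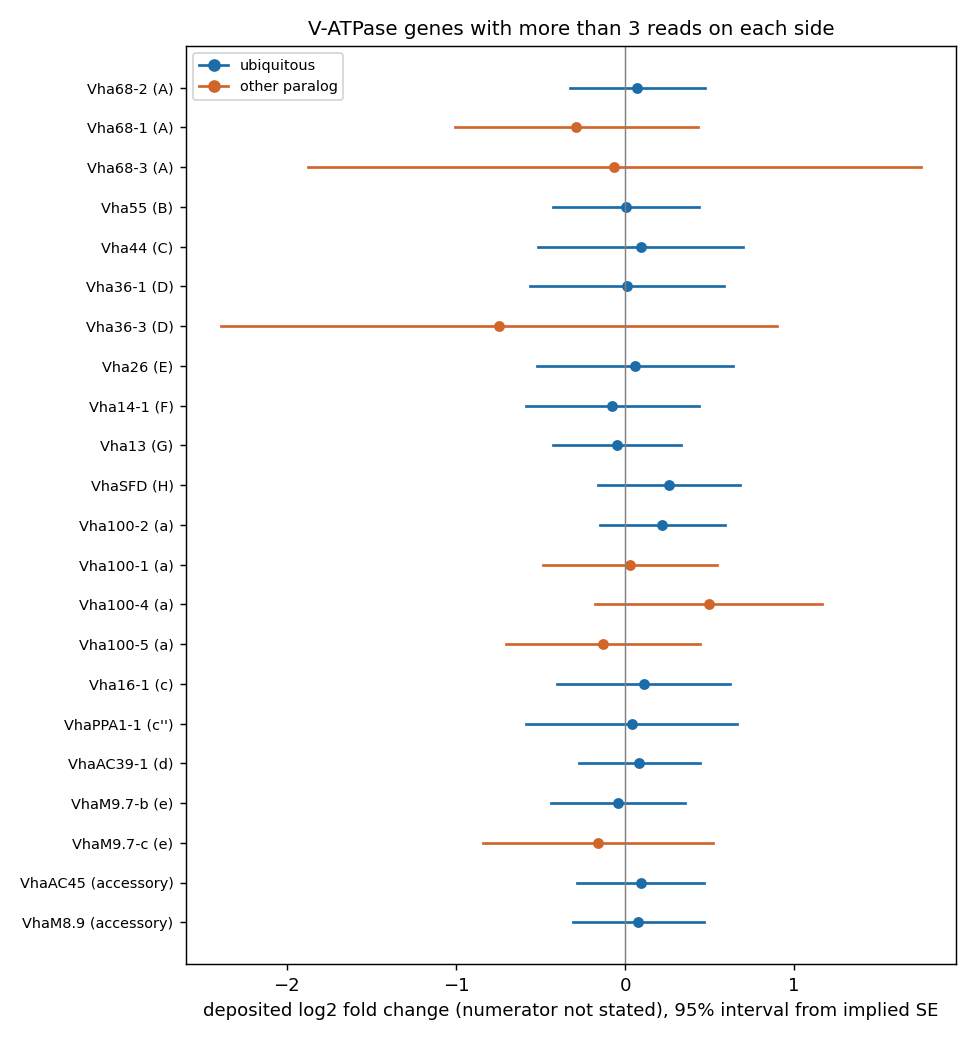
Deposited log2 fold change (points) with its 95% interval (lines) for the 22 V-ATPase genes with more than 3 reads on each side, ordered from V1 to V0, with the subunit in brackets. Every interval includes 0. The blue intervals of the ubiquitous subunits are short, and the widest orange ones belong to Vha36-3 and Vha68-3, which had 12 and 13 reads over the compared libraries.

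The other paralogs were far scarcer than the ubiquitous form of the same subunit. In each of the 18 pairs the ubiquitous gene had the higher level per length, and in 14 pairs it was 100-fold higher or more, over the 12 libraries. For the scarcest paralogs the numbers of reads could be read back from the table, since whole reads leave exact values in the average, the fold change and the test statistic. No read was found in the compared libraries for 7 of the 18 paralogs, against 12% of all genes, and 6 more had 1 to 13 reads there. These 13 genes together had 44 reads over the 6 compared libraries, 23 in positive-side and 21 in negative-side libraries. A gene with no read could still reach 0.0160 CPM there, the level of 3 reads. That limit covers counting error only.

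The 3 genes of the A family differed in level by orders of magnitude. Vha68-2 averaged 104 CPM per kb, against 3.29 CPM per kb for Vha68-1 and 0.0269 CPM per kb for Vha68-3, which is known from adult testis. Vha68-3 had 1, 2 and 4 reads in the positive-side libraries and 0, 2 and 4 reads in the negative-side libraries, each set given in order of library size. These counts overlap, and its log2 fold change was -0.06 (error 0.92) in the authors' deposited table. For Vha68-1 the authors' deposited table has -0.29 (error 0.37, unadjusted p 0.432), at an average of 8.81 CPM.

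The rotor subunits D and F showed the same split between forms. Vha36-1 averaged 86.8 CPM per kb, against 0.0465 CPM per kb for Vha36-3 and 0.00875 CPM per kb for Vha36-2. Vha36-3 had 5 positive-side and 7 negative-side reads, and Vha36-2 had 2 on each side, in 4 different libraries. In the authors' deposited table Vha36-3 had a log2 fold change of -0.75 (error 0.84) and an edgeR adjusted p of 1. Vha14-2, the second gene for subunit F, had 21 reads, all of them in libraries outside the comparison.

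Subunit a is thought to set where in the cell the pump works, and its 5 genes ran from 54.9 CPM per kb down to a single read in all. Vha100-2 averaged 54.9 CPM per kb and Vha100-1, known for its part in synaptic vesicles and endosomes of neurons, averaged 38.4 CPM per kb, a 1.43-fold difference. Vha100-1 had at least 20.2 reads per compared library and a log2 fold change of 0.03 (error 0.26) in the authors' deposited table. Vha100-5 averaged 0.497 CPM per kb, with a log2 fold change of -0.13 (error 0.29) in the authors' deposited table. Vha100-3, known from testis, had 1 read in all, outside the compared libraries.

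Vha100-4, which is known from acid secretion in the larval midgut, had the smallest p of the V-ATPase genes. It averaged 0.257 CPM per kb, had at least 11.8 reads per compared library, and its log2 fold change was 0.50 (error 0.34, unadjusted p 0.148, edgeR adjusted p 0.844) in the authors' deposited table. The 95% interval ran from 0.885-fold to 2.24-fold. Of the 11 midgut markers 9 were called on the same side, with values between 2.85 (error 0.30) for Amy-p and 8.43 (error 0.36) for Jon25Bi in the authors' deposited table. The mucin gene Mur29B was called opposite, at -2.41 (error 0.34) in the authors' deposited table, and the markers' part in the value of Vha100-4 was not tested. The Hox gene lab, which specifies the acid-secreting copper cells, had 1.54 (error 0.96) in the authors' deposited table and did not pass the test.

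Vha16-1 was the c subunit gene with reads in the comparison. Vha16-2, Vha16-3, Vha16-4 and Vha16-5 had no read in the 6 compared libraries. Outside the comparison, Vha16-4 had 1 read, Vha16-2 had 3 reads in 3 libraries, Vha16-3 had 70.9 to 87.0 reads and Vha16-5 had 81.5 to 102 reads, where the ranges allow for the unknown split between libraries. VhaPPA1-2, the second gene for c'', had 1, 0 and 3 reads on the positive side and 0, 2 and 0 reads on the negative side, again by library size. In the d family VhaAC39-2 had 2, 2 and 1 reads on the positive side and 1, 2 and 0 reads on the negative side, against at least 41.9 reads per compared library for VhaAC39-1. Neither paralog separated the sides, and the edgeR adjusted p was 1 for both.

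The e family was the other one in which a second form was abundant in the average over the 12 libraries. VhaM9.7-b averaged 76.6 CPM per kb, VhaM9.7-c 41.9, VhaM9.7-a 16.3 and VhaM9.7-d 0.700 CPM per kb. VhaM9.7-c had at least 11.5 reads per compared library and a log2 fold change of -0.16 (error 0.35) in the authors' deposited table. VhaM9.7-a, in contrast, had 1 read in the compared libraries, on the negative side, so its average of 11.6 CPM came from the 6 other libraries, at 23.2 CPM. No fold is given for it, and its edgeR adjusted p was 0.931. VhaM9.7-d had no read in the compared libraries.

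Paralogs and their ubiquitous partners had fold changes that differed by about their error or less. For the 7 paralogs with more than 3 reads on each side, the difference in log2 fold change, ubiquitous minus other, was at most 1.02 times its SE. That largest ratio belonged to the Vha100 pair, where Vha100-2 minus Vha100-5 was 0.35 (SE 0.35). This SE joins the errors of both genes as if the genes were independent, and no test was made. The difference was 0.19 (SE 0.32) for Vha100-2 minus Vha100-1, 0.36 (SE 0.42) for Vha68-2 minus Vha68-1 and 0.12 (SE 0.40) for VhaM9.7-b minus VhaM9.7-c.

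Neighbouring members differed in average level over the 12 libraries. By the Ensembl annotation, Vha68-2 and Vha68-3, Vha100-2 and Vha100-4, and Vha16-2 and Vha16-3 are next to each other among protein-coding genes, and 1 such gene lies between VhaPPA1-1 and VhaPPA1-2. In these averages per length, Vha68-2 was 3860-fold above its neighbour Vha68-3, and Vha100-2 was 214-fold above its neighbour Vha100-4. The gaps in the compared libraries alone are not known. Vha68-2 had at least 202 reads there and Vha68-3 had 13. The limits of the other pair overlap, with at least 237 reads for Vha100-2 and at most 292 for Vha100-4. Of the 33 genes, 6 share exon bases with a gene on the opposite strand, and no source used here says whether counting used strand. These are Vha44, Vha100-1, Vha100-4, Vha100-5, Vha16-2 and VhaPPA1-2, whose reads may thus include reads of the partner. None of the partners found in the table passed the edgeR threshold.

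Genes that build or steer the pump were mostly even as well. Of 7 genes listed for assembly and control, 1 was called by edgeR with a positive fold change and 0 with a negative one, against 4.49% of all genes in either direction. It was CG14989, whose place in the list could not be checked here, and the other 6 gave 0 calls and 0 unadjusted p under 0.05. CG14989 stood at an average of 0.372 CPM (edgeR adjusted p 8.43e-11). With at most 2.56 reads on the negative side, it is given no fold. Mitf, the transcription factor known to induce V-ATPase and lysosomal genes, had a log2 fold change of 0.33 (error 0.20, unadjusted p 0.109) at 148.5 CPM in the authors' deposited table. Rbcn-3A and Rbcn-3B, which help V1 to join V0, had 0.16 (error 0.25) and 0.17 (error 0.19) in the authors' deposited table. The median of the list was 0.16, against 0.03 over all genes with reads in the compared libraries.

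Lysosomal genes, whose products work in the acid that the pump makes, gave no call in either direction. Of the 19 genes 0 were called by edgeR, against 4.49% of all genes, and 0 reached an unadjusted p under 0.05, against 10%. Of the 19, 17 averaged 16 CPM or more, and calls were rarer among abundant genes. At the abundance of the ubiquitous subunits 0.795% of 2893 genes were called. The median log2 fold change of the list was 0.04 in the authors' deposited table, against 0.00 over all genes. Over genes with reads in the compared libraries it was 0.05, against 0.03. Those with the smallest p were CG31414, a glucocerebrosidase gene, with 0.86 (error 0.67), the hexosaminidases Hexo2 with 0.24 (error 0.20) and Hexo1 with 0.26 (error 0.26), and the thioesterase Ppt1 with 0.21 (error 0.29) in the authors' deposited table.

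Partners of the pump at the plasma membrane were listed as 21 transport genes. Of these 21 genes in the authors' deposited table, CG31547 passed on the positive side and Irk2 on the negative, against 4.49% of all genes in either direction. An unadjusted p under 0.05 was found for 4 of them, against 10% of all genes. The median log2 fold change was 0.14, against 0.03 over all genes with reads in the compared libraries. The sodium, potassium and chloride cotransporter gene CG31547 (NKCC) had a log2 fold change of 1.18 (error 0.32, edgeR adjusted p 7.56e-03) at 0.582 CPM in the authors' deposited table. Irk2, an inward rectifier potassium channel, had -1.13 (error 0.36, edgeR adjusted p 0.0413) at 0.315 CPM in the authors' deposited table. Irk1, of the same channel family, lay on the other side, at 0.50 (error 0.22, edgeR adjusted p 0.310) and 24.8 CPM. The sodium and proton antiporter gene Nha2 had -0.80 (error 0.39, edgeR adjusted p 0.436) in the authors' deposited table. Of the 10 tubule markers 5 were called on the negative side, with values between -4.38 (error 0.35) for Uro and -2.06 (error 0.40) for salt in the authors' deposited table. Of the other 5, CapaR, NaPi-T and Irk3 had -2.38, -0.79 and -0.58, and Picot and CG7589 had 0.09 and 0.21, in the authors' deposited table. The markers' part in the values of Irk1, Irk2 and Nha2 was not tested. Irk3 and CG7589 are in both the transport and the tubule list.

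**Figure D4:**
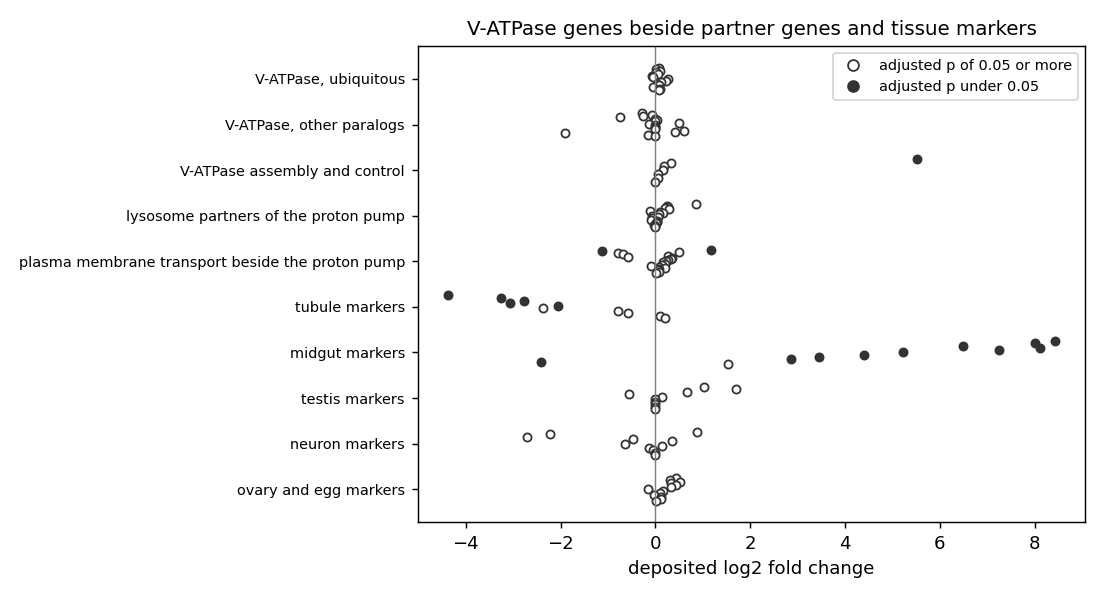
Deposited log2 fold change (x axis) of each gene in the V-ATPase groups, the partner lists and the marker lists, with filled points where the adjusted p is under 0.05; heights within a row only separate the points. The ubiquitous subunits lie between -0.08 and 0.26, while 9 of 11 midgut markers are filled to the right of 0 and 5 of 10 tubule markers to its left.

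Testis markers gave the background for the testis-known paralogs. Of the 10 markers matched, 5 had no read in the compared libraries, against 12% of all genes, and 0 averaged 1 CPM or more. None passed the edgeR threshold, against 4.49% of all genes. In the same test 1, betaTub85D, had an unadjusted p under 0.05 (0.0118), against 10% of all genes. Its log2 fold change was 1.03 (error 0.41) at 0.278 CPM in the authors' deposited table. Of the neuron markers, elav and Syx1A averaged 131 and 59.6 CPM, and 0 of 11 were called by edgeR, with 2 at an unadjusted p under 0.05. Of the 13 ovary and egg markers 0 were called and 0 had an unadjusted p under 0.05. The shares of all genes are again 4.49% and 10%. All 13 averaged over 16 CPM, and calls were rarer among abundant genes. At the abundance of the ubiquitous subunits 0.795% of 2893 genes were called. The lists were not tested against these shares.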

How the data were processed

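RNA isolation used TriPure and the library kit was TruSeq stranded total RNA, per the labels' protocols, while a further label calls the RNA polyA selected. FastQC, Bowtie and TopHat are named without versions, per the submitters' processing notes. The read counter, its use of strand, the genome build and the filters are not given. Per the file headers, the authors deposited the results of edgeR's likelihood ratio test, with a log2 fold change and an average log2 CPM, a likelihood ratio score, and p-values adjusted by Benjamini-Hochberg over 14862 genes. The deposited p-value equals the chi-square tail of the score with 1 degree of freedom, and its adjustment was recomputed over all rows. The table holds 0 columns of other samples and no value per sample, so the count test planned for that case was not run, and the authors' test was used as it stands.

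From the deposited values were computed the errors, the levels with the prior count of 2 removed, and the sizes of the 12 libraries, from genes with 1 read (dispersion 0.0533; 76 of 78 levels predicted for 2 reads were found within 1e-05). Scarce members were counted by searching for whole-read patterns that give the deposited fold change (prior count 0.125, tolerance 1e-06) and score. The least number of reads is that at which counting noise alone gives the error. The library sizes, the whole-read search and the least number of reads were tested on simulated data. Reads of Vha14-2, Vha16-2, Vha16-4 and Vha100-3, all outside the compared libraries, were counted from the average level alone. That way of counting was not tested. Names were matched to RefSeq for 14817 genes. Python 3.11.15, numpy 2.4.6 and scipy 1.17.1 were used.

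All members were described. Beyond them the text names up to 4 genes per partner list by smallest p, and markers chosen after their values were seen. The members, classes and lists were chosen with earlier results of these data known. Alternatives were a stricter threshold, a minimum fold, a minimum level, Holm adjustment, a wider rule for members and other length terms.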

Additional observations from a re-analysis of the deposited data

Results flagged for a closer look

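More than 3 reads of each of 5 paralogs appeared in the 6 libraries of the authors' fit that the comparison does not use, while the compared libraries held none or 1. Vha100-3, Vha16-2 and Vha16-4 also had reads there alone, but 3 or fewer, and VhaAC39-2 had 0.542 CPM there, against 0.0426 CPM in the compared libraries. VhaM9.7-a (subunit e) had 23.2 CPM in those libraries, against 1 read, or 0.00533 CPM, in the compared ones. VhaM9.7-d, of the same family, had 0.730 CPM there, and the c subunit genes Vha16-5 and Vha16-3 had 0.600 and 0.515 CPM. Vha14-2 (subunit F) had 0.131 CPM there, from 21 reads over all 6 libraries and at most 8 in a single library. For the last 4 genes the limit set by a count of 0 in the compared libraries is 0.0160 CPM. No source used here gives the origin of the 6 libraries.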

How the results depend on the processing

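The count of called V-ATPase genes was 0 in edgeR's test. An adjusted p under 0.01, a minimum of 2-fold and Holm adjustment are stricter and could give only 0. The count was also 0 with genes of 1 CPM or more alone (20 members, smallest adjusted p 1). It was 0 with 35 members, when rows with a Vha synonym were added. These are CG31030, with 1 read on each side but 2.97 CPM in the libraries outside the comparison, and CG5421, with 3 positive-side reads and 1 negative-side read. An adjusted p is never below its unadjusted p. In edgeR's test the unadjusted p was at least 0.148 for every member, 0.885 for CG31030 and 0.423 for CG5421. Both choices could thus give only 0 as well. The median log2 fold change was 0.00, set by members with no read in the compared libraries, and 0.03 from 1 CPM upwards. The median log2 level, ubiquitous minus other paralog, was 9.45; it was 9.49 with the longest transcript as length and 10.39 with no length term, and it fell to 2.24 over the paralogs of 1 CPM or more, a choice that drops the scarce paralogs. These 3 alternatives were chosen after seeing the data. No paired analysis was possible because the table holds no value per sample; for the same reason, leaving out replicates and DESeq2 size factors were not run.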
